A study of Mus musculus with 14 samples.

Results

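The genes described here encode neuronal calcium-binding proteins: the cytosolic calcium buffers parvalbumin (Pvalb), calbindin (Calb1) and calretinin (Calb2), the neuronal calcium sensors hippocalcin (Hpca), Hpcal1, Hpcal4, neurocalcin delta (Ncald), neuronal calcium sensor 1 (Ncs1) and visinin-like 1 (Vsnl1), and Necab1, a calcium-binding protein of the NECAB family. They were chosen by name, as 10 of 39017 gene identifiers, and all 10 were among the 21298 genes that passed the filter on low counts. RNA was measured in the hippocampus of PV-TRAP mice, in which a Cre-dependent EGFP-tagged L10a ribosomal protein is switched on by PV-Cre. Immunoprecipitation of the tagged polysomes (translating ribosome affinity purification, TRAP) enriches the mRNA of parvalbumin (PV) neurons from a whole hippocampal homogenate. The 14 libraries were 4 of TRAP RNA from non-defeated mice, 4 from resilient mice, 3 from susceptible mice, and 3 of total RNA from the homogenate of non-defeated mice, called input.

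All mice of the TRAP groups were male, of C57BL/6 background and carried both EGFP-L10a and PV-Cre, and behavioral experiments began at 8 to 12 weeks of age. Resilient and susceptible mice had gone through chronic social defeat stress (CSDS), 5 min a day for 10 days with CD1 aggressors, and were separated by the social interaction ratio at a value of 1, whereas non-defeated mice were not attacked. Each TRAP sample was 2 hippocampi of 1 mouse. Because PV-Cre follows the Pvalb gene, tagged ribosomes mark cells with a history of Pvalb expression, wherever in the dissected tissue they lie. The recovered RNA is enriched for these cells but not pure, and markers of excitatory neurons and glia were still found in it. The level of Pvalb in TRAP RNA is a check of the purification rather than a result. Library totals lay between 64110214 and 94726962 counts.

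Calcium-binding proteins of this kind hold calcium in EF hands, a helix-loop-helix fold whose loop carries acidic side chains around the ion. Buffers such as parvalbumin mainly bind calcium and shape how long it stays elevated after a spike, which in fast-spiking interneurons bears on transmitter release and short-term plasticity. Sensors such as hippocalcin and NCS-1 change shape on binding calcium and pass the signal to membranes, channels and enzymes. In the hippocampus calbindin is known as a marker of granule cells and of part of the CA1 pyramidal cells, calretinin of certain interneurons and of mossy cells in mouse, and hippocalcin is abundant in pyramidal cells.

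The loops that bind calcium are shown for Pvalb, the gene of the tagged cells, and, as the last loop of each, for the 6 sensors, whose sequences are close to each other. They are coding sequences from the GENCODE M21 transcripts (mm10), written 5′ to 3′ on the coding strand, 36 bases for 12 residues, with the codons of loop positions 1, 3, 5 and 12, which hold calcium through their side chains, in capitals.
Pvalb loop 1: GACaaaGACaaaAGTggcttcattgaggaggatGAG
Pvalb loop 2: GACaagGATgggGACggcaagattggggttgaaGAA
Hpca loop 3: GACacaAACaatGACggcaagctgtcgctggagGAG
Hpcal1 loop 3: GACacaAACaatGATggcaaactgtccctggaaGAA
Ncald loop 3: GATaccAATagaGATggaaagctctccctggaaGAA
Hpcal4 loop 3: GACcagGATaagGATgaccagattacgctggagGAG
Vsnl1 loop 3: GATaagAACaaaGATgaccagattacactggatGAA
Ncs1 loop 3: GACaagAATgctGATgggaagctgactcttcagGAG
All 8 lie in coding exons. The first parvalbumin loop is at chr15:78202526-78202561 on the minus strand, and the second, split by an intron, spans chr15:78191693-78201259. Those of Hpca (minus strand, chr4:129112506-129112690), Hpcal1 (plus strand, chr12:17787635-17791126), Ncald (minus strand, chr15:37368906-37372131) and Ncs1 (plus strand, chr2:31284734-31287316) are likewise split by an intron. Those of Hpcal4 (plus strand, chr4:123190754-123190789) and Vsnl1 (minus strand, chr12:11326373-11326408) are not.

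A search of the translated sequences for the EF-hand loop pattern found 2 loops in parvalbumin, 4 in calbindin, 5 in calretinin, 3 in each of the 6 sensors and 1 in Necab1, and a loop that departs from the pattern would have been missed. Hippocalcin and Hpcal1 were identical at 93.8% of residues, Hpcal1 and neurocalcin delta at 89.6%, and Hpcal4 and Vsnl1 at 89.5%, while NCS-1 shared 55.5% to 58.0% with the other sensors and calbindin 58.3% with calretinin. Over their 3 loops, Hpca and Hpcal1 differed at 12 of 108 bases, and Hpcal4 and Vsnl1 at 17. Despite this likeness no run of 150 bases, the read length, was shared with another gene by 8 of the 10 transcripts. The exceptions were Ncald, with 2.47% of such runs shared with the overlapping transcripts Gm28221 and Gm49397, and Necab1, with 5.13% shared with its antisense partner Gm11837. The library kit does not mark strand, so reads in exons shared with an opposite gene cannot be told apart: counts of Tmem54, opposite Hpca, came to 3.13% of those of Hpca, and counts of Gm11837 to 7.01% of those of Necab1.

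The first comparison asked how far each calcium-binding protein mRNA was enriched in PV-neuron polysomes over the whole hippocampus of non-defeated mice. Pvalb, Ncs1 and Vsnl1 were higher in TRAP RNA, Hpcal4, Hpca, Calb2 and Calb1 were lower, and Hpcal1, Ncald and Necab1 did not pass the test. With edgeR's quasi-likelihood test at an adjusted p under 0.05, 7 of the 10 genes were thus called, against 55% of all genes tested, 3 higher against 27.4% and 4 lower against 27.6%. In all 7 the libraries of the groups did not overlap, as was so for 62% of all genes. Called genes were common in this comparison, and the count by itself does not set the group apart. The median log2 fold change of the 10 genes was -0.16 and that of all genes -0.04.

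Pvalb, which names the tagged cells, stood at 20.0, 24.4 and 31.9 normalized CPM (counts scaled to the size of the library) in the 3 input libraries and at 1507, 1548, 1265 and 1538 in non-defeated TRAP libraries 1, 6, 9 and 11. The groups were far apart, and the log2 fold change was 5.85 (95% interval 5.48 to 6.21, adjusted p = 7.89e-11), or 57.6-fold. The gene lies on the minus strand at chr15:78191114-78206400. It had the smallest p of all genes tested in this comparison.

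Ncs1, the mammalian frequenin, a sensor known for its part in transmitter release (plus strand, chr2:31245823-31295989), was the other strongly enriched gene. It was at 379, 341 and 349 CPM in input and at 779, 745, 707 and 703 in non-defeated TRAP RNA. No library of one group reached the other, and the log2 fold change was 1.04 (0.88 to 1.20, adjusted p = 6.17e-08), or 2.06-fold. A change of more than 1 log2 unit in either direction was found for 28.6% of all genes here. Vsnl1, a myristoylated sensor of the visinin-like branch (minus strand, chr12:11325242-11436613), was at 329, 373 and 365 CPM in input and at 420, 464, 464 and 440 in TRAP RNA. Its groups did not overlap either, with a log2 fold change of 0.33 (0.17 to 0.49, adjusted p = 0.00197), but this was lost when libraries were scaled by their totals alone (0.14, adjusted p = 0.0931), a scaling that moved the median of all genes by -0.19.

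**Figure D1:**
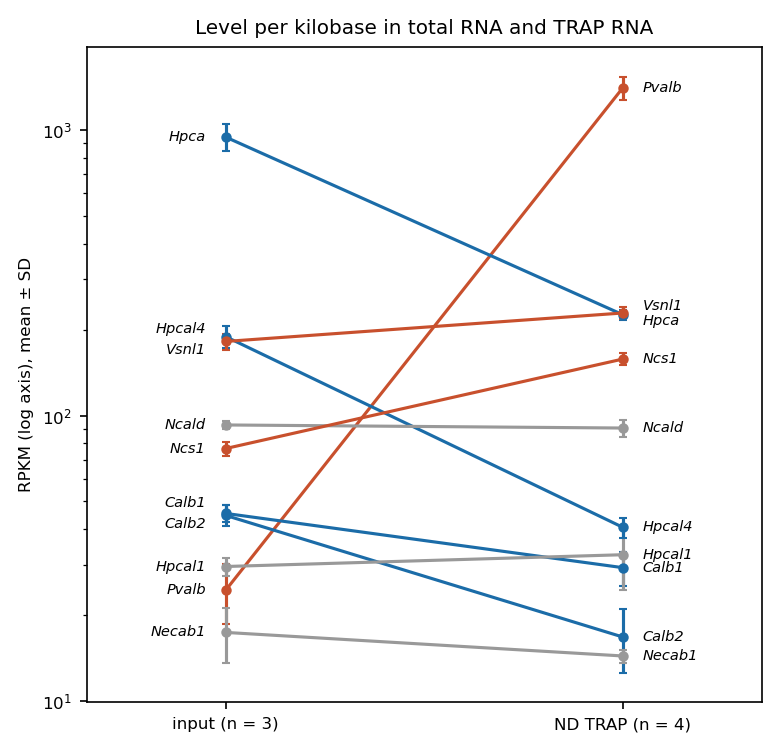
Mean level per kilobase of transcript (RPKM, log axis) of the 10 genes in input (n = 3) and in non-defeated TRAP RNA (n = 4), with SD as bars. Red lines mark genes called higher in TRAP RNA, blue lines genes called lower and grey lines genes not called. Pvalb climbed from 24.4 to 1407 RPKM, while Hpca dropped from 944 to 225.

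Hpcal4 and Hpca carried the strongest depletion. Hpcal4, a visinin-like sensor (plus strand, chr4:123183227-123194701), was at 1057, 1066 and 904 CPM in input and at 195, 236, 222 and 213 in non-defeated TRAP RNA, a log2 fold change of -2.22 (-2.48 to -1.96, adjusted p = 7.99e-09), or 4.66-fold lower. Hpca, the sensor of pyramidal cells that links calcium to the slow afterhyperpolarization (minus strand, chr4:129111570-129122036), was at 3057, 2765 and 2456 CPM in input and at 694, 651, 654 and 635 in TRAP RNA. Its log2 fold change was -2.07 (-2.37 to -1.77, adjusted p = 3.48e-08), or 4.19-fold lower. Both changes were within the range of the 8 marker genes of excitatory hippocampal neurons, all 8 of which were lower in TRAP RNA, by -2.47 to -1.28 on the log2 scale. These markers summed to 1187 to 1422 CPM in input and to 241 to 438 in the 11 TRAP libraries, so RNA of excitatory cells was reduced and not absent, and what part of the remaining Hpca and Hpcal4 it makes up was not tested.

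Among the buffers, Calb2 (minus strand, chr8:110137502-110168210) was at 84.3, 71.3 and 78.0 CPM in input and at 23.9, 22.7, 38.2 and 32.0 in non-defeated TRAP RNA, a log2 fold change of -1.42 (-1.97 to -0.86, adjusted p = 0.000327). Calb1 (plus strand, chr4:15881264-15908064) was lower by much less: 214, 237 and 209 CPM in input against 114, 146, 160 and 149, a log2 fold change of -0.63 (-0.87 to -0.39, adjusted p = 0.00025). Neither gene overlapped between the groups. The ratio of Calb1 to Calb2 within a library was 2.53 to 3.33 in input and 4.18 to 6.43 in non-defeated TRAP RNA, a description of values already seen.

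The remaining genes stayed near their level in the whole tissue. Ncald, a sensor close to hippocalcin (minus strand, chr15:37366175-37792570), was at 805, 814 and 766 CPM in input and at 795, 842, 730 and 735 in non-defeated TRAP RNA, with a log2 fold change of -0.04 (-0.23 to 0.16, adjusted p = 0.757). The sign turned with an offset for GC content (0.06), and under scaling by library totals the value was -0.22 (adjusted p = 0.0642), lower by about the shift of -0.19 of all genes. Hpcal1 (plus strand, chr12:17690856-17791933) was at 54.3, 48.2 and 48.0 CPM in input and at 45.3, 41.7, 66.6 and 67.1 in TRAP RNA, with a log2 fold change of 0.14 (-0.40 to 0.68, adjusted p = 0.666) that turned to -0.05 under scaling by library totals. Necab1 (minus strand, chr4:14952245-15149794) was at 68.8, 97.0 and 107 CPM in input and at 73.5, 78.5, 70.4 and 78.7 in TRAP RNA, with a log2 fold change of -0.27 (-0.63 to 0.08, adjusted p = 0.175). Necab1 was called lower under scaling by library totals (-0.46, adjusted p = 0.0353) and when input library 12, the one with its lowest input level, was left out (-0.44, adjusted p = 0.0383).

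Close relatives differed in this comparison in the pairs Hpca with Hpcal1 and Hpcal4 with Vsnl1. Hpca and Ncald, identical at 88.1% of residues, differed as well, whereas Hpcal1 and Ncald were both not called. The ratio of Hpca to Hpcal1 within a library, which does not depend on the scaling, was 51.2 to 57.4 in input and 9.47 to 15.6 in non-defeated TRAP RNA. The ratio of Hpcal4 to Vsnl1 was 2.48 to 3.21 in input and 0.463 to 0.509 in non-defeated TRAP RNA, so that counts of Hpcal4 were above those of Vsnl1 in every input library and below them in every non-defeated TRAP library. Per kilobase, where the longer Hpcal4 transcript counts for less, the genes overlapped in input. Each of these 2 ratios separated the groups without overlap (exact permutation test on the log2 ratio, 2-sided, p = 0.0286 for each, the smallest that 4 against 3 libraries allow). The ratios were chosen after the values of these genes were seen, so this p describes the separation and adds no support to it. In the resilient and susceptible TRAP libraries the first ratio was 9.20 to 26.2 and the second 0.400 to 0.653, again apart from all input libraries. In a bulk sample a lower level can mean fewer cells of a type or less RNA per cell, and these cannot be told apart. TRAP RNA is bound to polysomes and input is total RNA, so a difference between these RNA fractions cannot be told apart from them either.

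**Figure D2:**
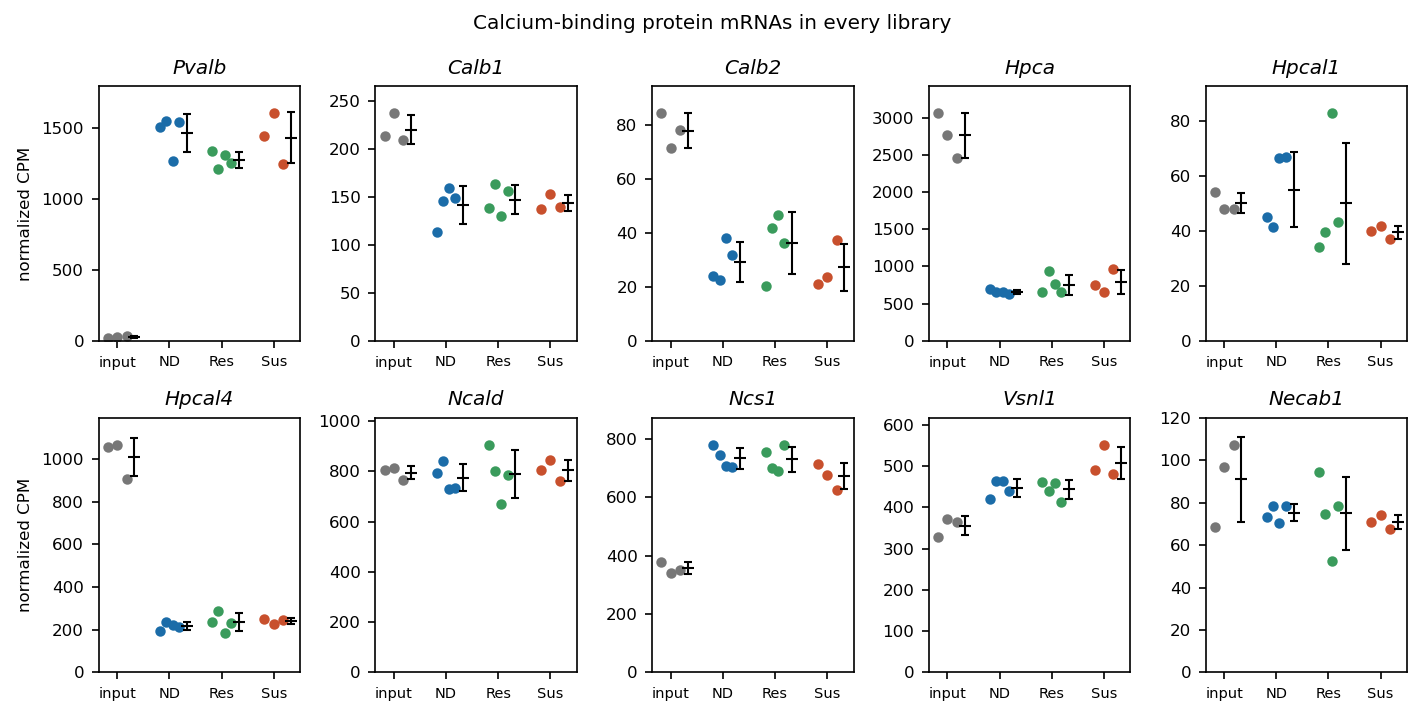
Normalized CPM of each gene in every library, in input (n = 3), non-defeated (ND, n = 4), resilient (Res, n = 4) and susceptible (Sus, n = 3) TRAP RNA, with the group mean and SD in black beside the points. The gap between input and TRAP libraries is wide for Pvalb, Hpca, Hpcal4 and Ncs1, the stress groups overlap for every gene but Vsnl1, and the 3 high Hpcal1 values are those of non-defeated libraries 9 and 11 and resilient library 7.

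Per kilobase of transcript (RPKM), Hpca led in input at 944 ± 103 (SD, n = 3), followed by Hpcal4 at 189 and Vsnl1 at 182, whose libraries overlapped, then by Ncald at 92.7, Ncs1 at 76.6, Calb1 at 45.4 and Calb2 at 44.7. Hpcal1 at 29.6, Pvalb at 24.4 and Necab1 at 17.4 closed the order, and neighbours among these 3 overlapped. In non-defeated TRAP RNA Pvalb led at 1407 ± 129 (SD, n = 4), followed by Vsnl1 at 229 and Hpca at 225, which overlapped, and by Ncs1 at 158 and Ncald at 90.4. Hpcal4 at 40.6, Hpcal1 at 32.5 and Calb1 at 29.3 came next, each overlapping its neighbour, and Calb2 at 16.8 and Necab1 at 14.4 overlapped as well. Pvalb made up 1.49% of the summed RPKM of the 10 genes in input and 62.7% in TRAP RNA, while Hpca fell from 57.4% to 10.1%. Among the sensors alone, Hpca went from the clear lead in input to a level in TRAP RNA that could not be separated from that of Vsnl1.

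The purification was checked with marker genes of the cells that a hippocampal dissection can hold. All 8 genes listed as markers of PV interneurons, Pvalb itself not among them, were higher in TRAP RNA, by 1.50 to 3.78 on the log2 scale, and all 6 oligodendrocyte and 5 microglial markers, as well as 5 of 6 astrocyte markers, were lower. The list of other interneurons went both ways, with 2 of 7 markers higher (Npy by 2.79 and Sst by 1.61) and 4 lower, and its sum was 333 to 380 CPM in input and 427 to 637 in non-defeated TRAP RNA. Of 4 endothelial markers 1, Cldn5, was called higher (1.22, adjusted p = 0.0136). Flt1 (0.72, adjusted p = 0.151), Cdh5 (0.76, adjusted p = 0.610) and Pecam1 (-0.36, adjusted p = 0.695) were not called. The endothelial list summed to 2.44 to 3.44 CPM in input and 3.29 to 5.88 in non-defeated TRAP RNA. Of 5 mossy cell markers 3 were called lower and 0 higher. Their sum was 151.7 to 174.0 CPM in input and 107.5 to 136.5 in non-defeated TRAP RNA, and the part of mossy cells in the Calb2 values was not tested. Called lower were also 1 of 4 Cajal-Retzius and 2 of 4 choroid plexus markers, with 0 called higher. Markers of the thalamus, a region next to the hippocampus, stood apart: their sum was 32.3 to 58.0 CPM in 7 TRAP libraries and 144 to 628 in the other 4, namely non-defeated 9 (352) and 11 (223), resilient 7 (628) and susceptible 10 (144), and it was 71.2, 97.5 and 367 in input. All 8 of these markers were detected.

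**Figure D3:**
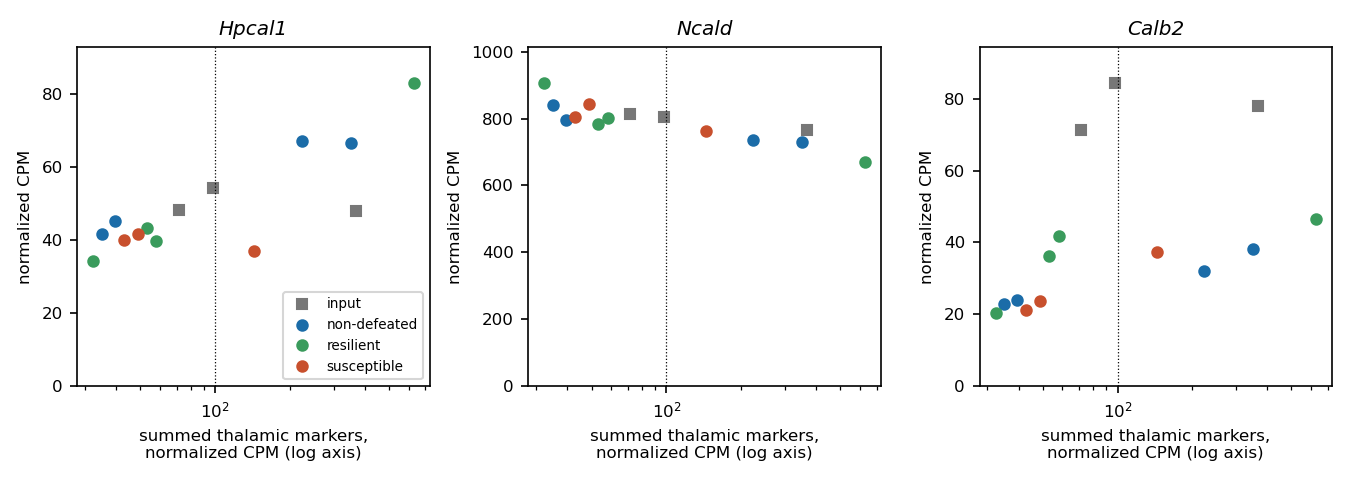
Normalized CPM of Hpcal1, Ncald and Calb2 in each library against the summed thalamic markers of that library (normalized CPM, log axis), with input libraries as squares and TRAP libraries as circles colored by group. The dotted line marks 100 CPM. The 3 TRAP libraries with the highest thalamic sums have the highest Hpcal1, and the 4 TRAP libraries right of the line have the lowest Ncald.

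Some values went with these markers across TRAP libraries of different groups. Hpcal1 was at 34.4 to 45.3 CPM in the 7 TRAP libraries with low thalamic sums, and at 66.6, 67.1 and 83.0 in non-defeated 9 and 11 and resilient 7, while susceptible 10 was at 37.0 and input library 14, with a sum of 367, at 48.0. Ncald was at 784 to 906 CPM in the 7 libraries and at 670 to 763 in the other 4, without overlap. Calb2 was at 20.4 to 41.9 CPM and at 32.0 to 46.5, with overlap. Ncs1 was at 677 to 779 CPM (median 745) and at 626 to 707 (median 696), with overlap. Necab1 was at 70.9 to 94.4 CPM (median 74.6) and at 52.7 to 78.7 (median 69.0), also with overlap. Pvalb, at 1208 to 1600 and 1241 to 1538 CPM, and Calb1, at 114 to 164 and 130 to 160 CPM, overlapped widely. So did Hpca (651 to 934 and 635 to 969 CPM), Hpcal4 (195 to 288 and 184 to 247) and Vsnl1 (412 to 552 and 440 to 481). What part thalamic RNA had in these values was not tested. With only the libraries under 100 CPM (2 input, 2 non-defeated, 3 resilient and 2 susceptible, a choice made after the data were seen) Hpcal1 turned to -0.23 on the log2 scale (adjusted p = 0.184) in TRAP RNA against input and Ncald to 0.03 (adjusted p = 0.802), and 7 genes were called.

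The stress comparisons asked whether these mRNAs changed in PV neurons with resilience or susceptibility to CSDS. None of the 10 genes was called between any 2 of the 3 groups, and all their changes were between -0.48 and 0.31 on the log2 scale. The share called among all genes was 0% for resilient against non-defeated mice, 0.0376% for susceptible against non-defeated mice and 1.89% for susceptible against resilient mice. At an unadjusted p under 0.05 the quasi-likelihood test gave 0, 1 and 1 of the 10 genes, against 4.38%, 13.3% and 20.9% of all genes, so the 10 genes held no more of these than the rest. The likelihood ratio test and DESeq2 called 0 of the 10 in each comparison. For resilient against non-defeated mice, where the quasi-likelihood test and DESeq2 called 0 genes of all tested, the likelihood ratio test called 4, and 933 genes had an unadjusted p under 0.05.

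Vsnl1 was the gene with an unadjusted p under 0.05 in both comparisons with susceptible mice. It was at 420, 464, 464 and 440 CPM in non-defeated, at 463, 441, 460 and 412 in resilient and at 491, 552 and 481 in susceptible libraries. The 3 susceptible libraries lay above all others, and the log2 fold change was 0.18 (0.02 to 0.35, adjusted p = 0.328) against non-defeated and 0.20 (0.03 to 0.36, adjusted p = 0.161) against resilient mice. An exact permutation test gave p = 0.0286 for each, the smallest that 4 against 3 libraries allow, and groups that do not overlap were found for 8.62% and 15.1% of all genes in these comparisons. Between resilient and non-defeated mice 0 of the 10 genes were free of overlap, against 2.35% of all genes. Over the alternatives the change against resilient mice ranged from 0.13 to 0.25, with an adjusted p of 0.105 to 0.377. Without susceptible library 4 the change against non-defeated mice was 0.12. Markers of other interneurons summed to 498 to 877 CPM in susceptible, 427 to 637 in non-defeated and 416 to 794 in resilient libraries. Choroid plexus markers summed to 424 to 713 CPM in susceptible, 197 to 310 in non-defeated and 162 to 449 in resilient libraries, and the part of either in the Vsnl1 values was not tested.

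**Figure D4:**
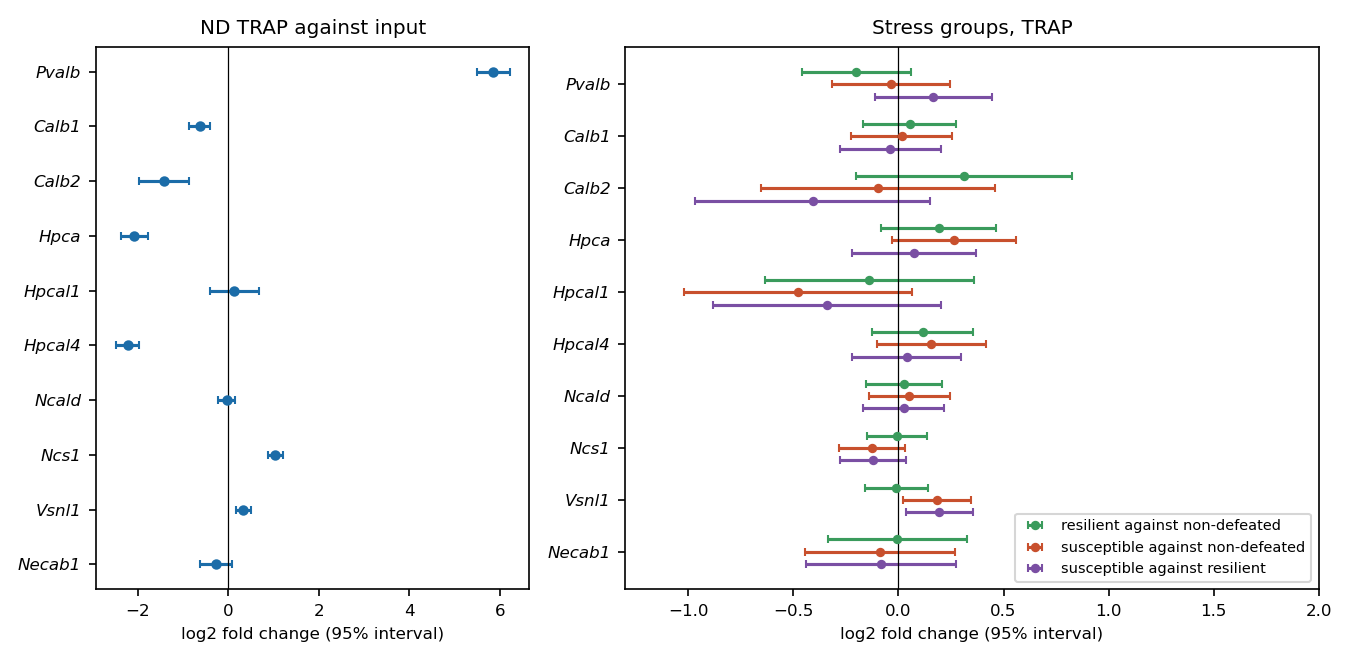
Log2 fold change with 95% interval of each gene, on the left in non-defeated TRAP RNA (n = 4) against input (n = 3) and on the right between the stress groups (resilient n = 4, susceptible n = 3). On the left 7 intervals lie clear of 0, and on the right only those of Vsnl1 in both comparisons with susceptible mice do, before adjustment over all genes. The horizontal scales differ between the panels.

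Pvalb itself was at 1332, 1208, 1304 and 1250 CPM in resilient and at 1443, 1600 and 1241 in susceptible libraries. The resilient libraries lay close together, below 3 of the 4 non-defeated libraries, with a log2 fold change of -0.20 (-0.46 to 0.06, adjusted p = 1, exact permutation p = 0.0857). The change in susceptible mice was -0.04 (-0.32 to 0.24, adjusted p = 0.928) against non-defeated and 0.17 (-0.11 to 0.44, adjusted p = 0.507) against resilient mice. The last value was 0.075 without susceptible library 4 and 0.26 without susceptible library 10. All bounds of the intervals lay between -0.46 and 0.44.

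Ncs1, the sensor most enriched in TRAP RNA, was at 753, 700, 689 and 778 CPM in resilient and at 714, 677 and 626 in susceptible libraries, with overlap in every comparison. Its change in susceptible mice was -0.13 (-0.28 to 0.03, adjusted p = 0.464) against non-defeated and -0.12 (-0.28 to 0.04, adjusted p = 0.377) against resilient mice. Calb1, at 139, 164, 130 and 157 CPM in resilient and 138, 153 and 140 in susceptible libraries, had changes of -0.04 to 0.05 in the 3 comparisons. Ncald moved as little, with changes of 0.02 to 0.05, over 906, 801, 670 and 784 CPM in resilient and 805, 844 and 763 in susceptible libraries. For these 3 genes the intervals were narrow, with all bounds between -0.28 and 0.28.

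Hpca varied more among the stressed mice than among non-defeated mice, at 657, 934, 764 and 653 CPM in resilient and 754, 651 and 969 in susceptible libraries. The highest values, in resilient library 5 and susceptible library 10, came with the highest sums of excitatory markers in TRAP RNA, 438 and 428 CPM. Non-defeated library 11, however, had a sum of 411 and Hpca at 635 CPM. The change in Hpca was 0.19 (-0.08 to 0.47, adjusted p = 1) in resilient and 0.27 (-0.03 to 0.56, adjusted p = 0.412) in susceptible against non-defeated mice. The first value was 0.07 without resilient library 5, and the second 0.09 without susceptible library 10. Hpcal4 was at 234, 288, 184 and 233 CPM in resilient and 250, 227 and 247 in susceptible libraries, with changes of 0.04 to 0.16.

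Calb2 and Hpcal1, the members that spread most between TRAP libraries, had the widest intervals. Calb2 was at 20.4, 41.9, 46.5 and 36.1 CPM in resilient and 21.1, 23.6 and 37.2 in susceptible libraries, with a change of -0.41 (-0.97 to 0.15, adjusted p = 0.401) between susceptible and resilient mice. This value was -0.25 without susceptible library 2, -0.26 without resilient library 7 and -0.70 without susceptible library 10. Hpcal1 was at 34.4, 39.8, 83.0 and 43.4 CPM in resilient and 40.0, 41.8 and 37.0 in susceptible libraries. Its change in susceptible against non-defeated mice, -0.48 (-1.02 to 0.07, adjusted p = 0.424), was the largest of any of the 10 genes in the stress comparisons. The value was -0.09 with only the libraries of low thalamic sums and -0.29 (adjusted p = 0.425) with the thalamic sum as a covariate. A change by 1 log2 unit in Hpcal1 is within the interval of -1.02 to 0.07, so these libraries cannot show that it is absent. Necab1 was at 94.4, 74.6, 52.7 and 78.5 CPM in resilient and 70.9, 74.1 and 67.5 in susceptible libraries, with changes of -0.09 in susceptible and -0.0046 in resilient against non-defeated mice.

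Related genes were taken from 3 lists, chosen like the 10 genes with earlier results of these data known. Of 29 other EF-hand proteins 23 were tested, of which 6 were higher and 6 lower in non-defeated TRAP RNA than in input, close to the 27.4% and 27.6% of all genes, with a median log2 fold change of -0.10. Of 4 potassium channel interacting proteins 1 was higher, 2 were lower (Kcnip4 by -1.03, adjusted p = 0.00115) and 1, Kcnip2, was not called (-0.22, adjusted p = 0.263), with Kcnip4 and Kcnip2 named after their values were seen. Kcnip1 rose from 32.1 to 171 CPM (log2 fold change 2.41, adjusted p = 5.59e-08) and Kcnip3 fell from 107 to 19.6 (-2.46, adjusted p = 2.84e-07). Cabp1, a modulator of voltage-gated calcium channels, rose from 59.5 to 135 CPM (1.18, adjusted p = 3.03e-07), and Efhd2, an actin-binding EF-hand protein, from 355 to 592 (0.74, adjusted p = 2.62e-05). Necab2, a relative of Necab1, fell from 148 to 58.3 CPM (-1.34, adjusted p = 2.36e-06), and Efhd1 from 31.7 to 8.67 (-1.87, adjusted p = 8.93e-06).

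The clearance list held 22 genes of calcium pumps, exchangers and the mitochondrial uniporter, not all of which remove calcium from the cytosol. Of the 22, 3 were higher and 9 lower in TRAP RNA, beside 27.4% and 27.6% of all genes, with a median of -0.38. Higher were the uniporter subunits Micu3, from 47.7 to 124 CPM (1.37, adjusted p = 2.83e-08), and Smdt1, from 142 to 299 (1.07, adjusted p = 2.59e-06), and the plasma membrane pump Atp2b2, from 212 to 284 (0.42, adjusted p = 0.00346). Atp2b2 was not called under scaling by library totals (0.24, adjusted p = 0.0573) or with only the libraries of low thalamic sums (0.30, adjusted p = 0.0741). The lower genes with the smallest p were Mcub, a uniporter subunit that lowers its activity (-1.86, adjusted p = 6.56e-06), the exchanger Slc24a4 (-1.90, adjusted p = 0.000112) and the Golgi pump Atp2c1 (-0.90, adjusted p = 0.000133). The uniporter genes therefore parted as well, with Micu3 and Smdt1 up and Mcub down.

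Of 15 calmodulin-dependent enzymes, 3 were higher and 9 lower, again beside 27.4% and 27.6% of all genes, with a median of -0.90 against -0.04 for all genes. Camk2g rose from 24.1 to 52.0 CPM (1.11, adjusted p = 1.37e-06) and Camk1 from 65.2 to 138 (1.08, adjusted p = 1.34e-06), and Ppp3cc, a catalytic subunit of calcineurin, rose from 27.8 to 35.1 (0.34, adjusted p = 0.0248) but lost its call under scaling by library totals (0.15, adjusted p = 0.28), with only the libraries of low thalamic sums (0.35, adjusted p = 0.0818) and without non-defeated library 1 (0.31, adjusted p = 0.0524), input library 12 (0.29, adjusted p = 0.0961) or input library 13 (0.35, adjusted p = 0.0529). Lower were the upstream kinases Camkk2 (-0.99, adjusted p = 1.65e-07) and Camkk1 (-1.95, adjusted p = 6.75e-07) and the regulatory calcineurin subunit Ppp3r1 (-0.83, adjusted p = 7.91e-07).

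**Figure D5:**
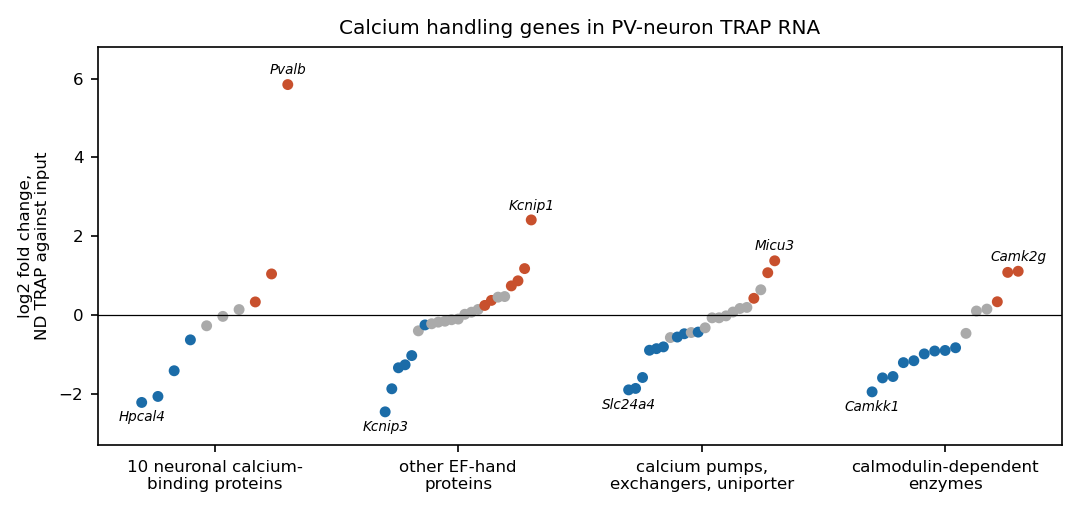
Log2 fold change in non-defeated TRAP RNA (n = 4) against input (n = 3) of the 10 genes and of the tested genes of the 3 lists, each point 1 gene, ordered within its list. Red points were called higher, blue points lower and grey points not called at an adjusted p under 0.05, and the names mark the ends of each list. Of the calmodulin-dependent enzymes 9 of 15 are blue, of the other EF-hand proteins 6 of 23.

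Between the stress groups 0 genes of the 3 lists were called in either comparison with non-defeated mice by the quasi-likelihood test (at an unadjusted p under 0.05, for the resilient group 2 EF-hand, 1 clearance and 1 enzyme gene, for the susceptible group 6, 3 and 2, beside 4.38% and 13.3% of all genes), and DESeq2 and the likelihood ratio test called 0 there too. Between susceptible and resilient mice 2 of the 15 enzymes were higher in susceptible mice, against 1.89% of all genes called. At an unadjusted p under 0.05 the quasi-likelihood test gave 4 of 23 EF-hand, 9 of 22 clearance and 4 of 15 enzyme genes there. The share of all genes was 20.9%. Markers of other interneurons summed to 498 to 877 CPM in susceptible and 416 to 794 in resilient libraries, and choroid plexus markers to 424 to 713 and 162 to 449, both with overlap, and their part in these values was not tested. Ppp3cb, a catalytic subunit of calcineurin, was at 128, 144, 132 and 134 CPM in resilient and at 168, 177 and 182 in susceptible libraries (0.39, adjusted p = 0.0227). Camk2g was at 45.3, 48.7, 44.7 and 47.2 CPM in resilient and at 71.3, 67.3 and 59.9 in susceptible libraries (0.51, adjusted p = 0.0389). Neither gene overlapped between the groups, as was so for 15.1% of all genes in this comparison. Neither was called when only the 11 TRAP libraries (adjusted p = 0.0834 and 0.102) or only these 2 groups (adjusted p = 0.141 and 0.136) were fitted. Ppp3cb also lost its call without resilient library 3 (adjusted p = 0.0505), 7 (0.0712) or 8 (0.0702) or susceptible library 2 (0.0883). Camk2g lost it without resilient library 3 (adjusted p = 0.0574), 5 (0.0536), 7 (0.107) or 8 (0.095) or susceptible library 2 (0.15) or 4 (0.0802).

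The 3 genes whose log2 CPM followed Pvalb most closely over the 11 TRAP libraries were Gm16796 (Pearson's r = 0.98, Spearman's rho = 0.96), Polr2h (0.94 and 0.90) and Glrx2 (0.93 and 0.94). For Calb1 they were Snx31 (0.93 and 0.84), Smurf1 (0.92 and 0.88) and Egf (0.90 and 0.92). These are the highest of 21298 genes over few libraries that also share their depth and scaling, and are given as a description. Among the 45 pairs of the 10 genes, 1 had an adjusted p under 0.05 over the 11 TRAP libraries, Hpcal1 and Ncald (r = -0.86, adjusted permutation p = 0.0198, and rho = -0.70, adjusted permutation p = 0.231). Both genes went with the thalamic markers, and r was -0.68 without the 2 libraries farthest from the median of Hpcal1 and -0.79 within the 7 with low thalamic sums (exact permutation test, adjusted p = 0.626). For all 45 pairs, r over the 7 TRAP libraries with low thalamic sums ranged from -0.81 to 0.78 with a median of -0.14, and 0 pairs had an adjusted p under 0.05 in an exact permutation test (2 had an unadjusted p under 0.05).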

How the data were processed

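TRAP RNA of hippocampal PV neurons (4 non-defeated, 4 resilient and 3 susceptible mice) and input RNA (3 samples) were sequenced as 150 bp single reads after amplification from 1 ng of RNA with a kit that does not mark strand. The deposited values are raw counts per gene, which the authors made from reads trimmed with fastp, aligned to mm10 with STAR and counted with HTSeq, without normalization. The strand setting and the annotation release are not given in the sources used here. Of 39017 identifiers 37607 were named from GENCODE release M21, and the others held 0.824% of counts. No column was left out.

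The tests were made with edgeR 4.0.16 (R 4.3.3) in 1 model of all 14 libraries (TMM normalization, default filter on low counts, 21298 genes, quasi-likelihood test, 2-sided, Benjamini-Hochberg adjustment over all genes, called at an adjusted p under 0.05), so the groups shared 1 estimate of the spread. Normalized CPM are counts scaled to TMM library sizes, and RPKM are these per kilobase of annotated exons. Exact permutation tests used log2 CPM with a prior count of 2. Groups were taken from the labels. The numbers in sample names differ between groups, so no comparison was paired. Each TRAP sample is a separate mouse, and whether the input samples match TRAP samples is not given in the sources used here.

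The 10 genes, the lists and the markers were chosen with earlier results of these data known. Named genes were all 10, from each list up to 3 called genes a direction with the smallest p, and the 3 genes most like Pvalb and Calb1. The alternatives were RLE size factors, library totals, no filter, at least 10 counts in every library, DESeq2 1.42.0 fitted to each pair of groups, edgeR on the same pair alone, the likelihood ratio test, a GC offset from transcript GC content, the 11 TRAP libraries alone, the sample number as a covariate and leaving out each library. Fits with only libraries under 100 CPM of thalamic markers, and with that sum as a covariate, were chosen after seeing the data. The fitting steps were tested on simulated data.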

Additional observations from a re-analysis of the deposited data

Results flagged for a closer look

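Pvalb in non-defeated library 9, at 1265 normalized CPM, lay far below the other 3 non-defeated libraries, which were at 1507 to 1548. This was the only such sample among 20 groups of 4 libraries tested (the 10 genes in non-defeated and in resilient mice), and chance alone flags about 1 group in 20. The same library had a thalamic marker sum of 352 CPM and the highest sum of PV interneuron markers of the non-defeated libraries, 3137 CPM.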

How the results depend on the processing

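The 7 genes called between TRAP RNA and input kept their call and direction in all 16 alternatives, except Vsnl1 under library totals. In the stress comparisons 0 of the 10 genes were called in any alternative. Signs turned only for values that were not called, and the cause was not tested. In TRAP RNA against input, these were Hpcal1 (-0.052 under library totals and -0.23 with low thalamic sums) and Ncald (0.063 with the GC offset and 0.027 with low thalamic sums). In resilient against non-defeated mice, they were Ncs1 (0.0024) and Necab1 (0.0047) without a filter, Vsnl1 (0.032) and Necab1 (0.055) with the GC offset, and Necab1 (0.11) with low thalamic sums. Calb2 in susceptible against non-defeated mice turned to 0.030 with the thalamic covariate. In susceptible against resilient mice with low thalamic sums, Hpca turned to -0.087, Hpcal1 to 0.065, Hpcal4 to -0.074 and Ncald to -0.0048.

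Leaving out each library in turn gave, in resilient against non-defeated mice, -0.039 to 0.12 for Calb1, -0.49 to 0.0059 for Hpcal1, -0.045 to 0.098 for Ncald, -0.039 to 0.024 for Ncs1, -0.039 to 0.024 for Vsnl1 and -0.13 to 0.13 for Necab1. In susceptible against non-defeated mice it gave -0.13 to 0.055 for Pvalb, -0.077 to 0.077 for Calb1 and -0.39 to 0.060 for Calb2. In susceptible against resilient mice it gave -0.093 to 0.016 for Calb1, -0.098 to 0.20 for Hpca, -0.48 to 0.015 for Hpcal1, -0.060 to 0.15 for Hpcal4, -0.047 to 0.096 for Ncald and -0.22 to 0.046 for Necab1.

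Between susceptible and resilient mice the calmodulin-dependent enzymes gave 1 call without a filter, 0 with only these groups or only TRAP libraries, and 0 to 3 when a library was left out. The EF-hand list gave 1 with DESeq2, the sample number or low thalamic sums, and 0 to 1 when a library was left out. The clearance list gave 2 with low thalamic sums, and 0 to 1 when a library was left out. Calls over all genes ranged from 0 to 189 (8 in the reported fit) in susceptible against non-defeated and from 0 to 1109 (403) in susceptible against resilient mice. No paired analysis was possible because the groups share no replicate numbers. With 3 or 4 libraries a group, the stress comparisons could not exclude changes of the following sizes. The 95% interval reached -1.02 for Hpcal1 in susceptible against non-defeated mice. For Calb2 it reached 0.83 in resilient against non-defeated mice and -0.97 in susceptible against resilient mice. Bounds also reached 0.56 for Hpca and -0.45 for Necab1 (susceptible against non-defeated) and -0.46 for Pvalb (resilient against non-defeated).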
